A study of Homo sapiens with 2 samples.

Results

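The hypoxia-program members of the PC9 culture were 507 cells with the highest summed level of NDRG1, EGLN3, TMEM45A, IGFBP3 and P4HA1, 5 genes known to be induced when oxygen is short. They were taken from 10142 cells that held at least 1000 gene UMIs (unique molecular identifiers, each standing for 1 captured RNA molecule), 500 or more genes and no more than 20% mitochondrial UMIs, out of 10847 deposited cell barcodes. The score of a cell was the sum of the UMIs of the 5 genes divided by all its gene UMIs, and the members were the top 5% by that score. The other 9635 cells are called the remaining cells. On the CPM scale, counts of a gene or gene list scaled to a common total of gene UMIs, the score was 381.061 in the lowest member and 380.844 in the highest remaining cell, so the limit falls between neighbouring values. The members had been chosen on these values, and the 5 genes are therefore described without a test.

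PC9 is an established line of human lung adenocarcinoma whose growth depends on mutant EGFR. It was grown as 1 pooled culture, infected with lentivirus carrying sgRNAs (8 ug/ml polybrene) and kept under puromycin (1 ug/ml). The groups carried sgRNAs against ATF4, CTCF, CTNNB1, JUN, MYC or PGAM1, and the control group carried non-targeting sgRNAs; all of them share the line, the culture and the selection. Knockout, dCas9 and knockdown are all named in the labels, which give day 7 as well as day 8, so the kind of perturbation and the day of harvest are uncertain. Gene expression and sgRNA capture libraries of the same cells formed 1 joint matrix of 136071789 gene UMIs. Oxygen was not a variable of the design in the sources used here. Because there was 1 culture, members and remaining cells have no replicates: no test was made between them, intervals are exact 95% Poisson or binomial intervals that cover counting error only, and the repeat of a difference within the 7 sgRNA groups is given instead. Those groups held 33 members with ATF4 sgRNAs, 63 with CTCF, 65 with CTNNB1, 50 with JUN, 6 with MYC, 8 with PGAM1 and 44 with non-targeting sgRNAs, so the MYC and PGAM1 values rest on few cells.

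Cells sense oxygen through prolyl hydroxylases, such as EGLN1 and EGLN3. With oxygen present these enzymes mark the alpha subunits of hypoxia-inducible factor (HIF) for destruction by the VHL ubiquitin ligase, and when oxygen is short the subunits are spared, pair with ARNT and bind DNA at a short core of A or G followed by CGTG. The genes they induce raise glucose uptake and glycolysis, divert pyruvate to lactate, remodel collagen and set off removal of mitochondria. Since HIF is controlled mainly as a protein, its activity is usually read from its target transcripts.

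The promoters of 4 genes are shown because they hold this core and belong to the genes that set the members apart: BNIP3, ERO1A and BHLHE40 have large ratios among the known HIF targets outside the score, and P4HA1 is a score gene. The sequences are those of RefSeq on GRCh38.p14, from 250 bases before to 50 bases after the annotated start, written in the direction of the gene. Capitals mark ACGTG or GCGTG on either strand (CACGT or CACGC where the match lies on the other strand), and matches may overlap, as where CACGTG holds ACGTG on both strands. The BNIP3 window is chr10:131981874-131982173 on the minus strand, that of ERO1A chr14:52695509-52695808 on the minus strand, that of BHLHE40 chr3:4979187-4979486 on the plus strand and that of P4HA1 chr10:73096817-73097116 on the minus strand.
BNIP3: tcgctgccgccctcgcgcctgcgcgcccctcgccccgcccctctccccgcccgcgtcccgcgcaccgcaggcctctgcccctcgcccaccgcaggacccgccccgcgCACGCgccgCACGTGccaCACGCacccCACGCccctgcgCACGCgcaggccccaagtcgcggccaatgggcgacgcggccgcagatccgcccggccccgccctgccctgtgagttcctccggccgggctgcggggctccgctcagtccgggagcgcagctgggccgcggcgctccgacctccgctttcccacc
ERO1A: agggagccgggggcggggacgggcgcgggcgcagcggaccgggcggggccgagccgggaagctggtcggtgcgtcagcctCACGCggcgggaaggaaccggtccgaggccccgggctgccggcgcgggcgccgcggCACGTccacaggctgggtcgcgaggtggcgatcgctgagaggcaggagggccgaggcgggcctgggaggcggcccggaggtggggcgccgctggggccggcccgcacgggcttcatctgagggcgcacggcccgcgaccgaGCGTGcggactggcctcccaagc
BHLHE40: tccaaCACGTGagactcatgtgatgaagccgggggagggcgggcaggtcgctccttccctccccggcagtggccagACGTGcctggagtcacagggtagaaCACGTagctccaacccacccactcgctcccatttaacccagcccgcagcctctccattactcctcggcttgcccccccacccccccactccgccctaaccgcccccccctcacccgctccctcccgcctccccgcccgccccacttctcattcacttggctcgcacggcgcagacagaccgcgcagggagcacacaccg
P4HA1: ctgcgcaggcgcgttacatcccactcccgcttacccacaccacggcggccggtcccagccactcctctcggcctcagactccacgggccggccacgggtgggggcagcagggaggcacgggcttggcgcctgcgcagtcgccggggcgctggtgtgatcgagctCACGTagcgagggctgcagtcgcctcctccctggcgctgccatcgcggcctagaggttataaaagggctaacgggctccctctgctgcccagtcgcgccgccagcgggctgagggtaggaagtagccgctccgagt

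ACGTG stood in 14 of the 17 tested HIF targets outside the score that have a promoter in the RefSeq table (82.4%), against 28.4% of the 4409 tested genes with a promoter and 21.6% of all 27305 promoters. ACGTG or GCGTG stood in 16 of those 17 (94.1%), in 65.9% of the tested genes and in 48.4% of all promoters. The list was made of known HIF targets, so this share describes the list and not the members. Among all genes at least 1.5-fold higher in members, 30.9% of 194 promoters held ACGTG and 56.7% held either core. Among those at least 1.5-fold lower, 28.9% of 544 held ACGTG and 71.1% held either. ACGTG was thus about as frequent in the promoters of higher genes as in those of lower genes and of all tested genes. Of the score genes, P4HA1 had 1 ACGTG, 86 bases before its start, IGFBP3 had 3 GCGTG, and EGLN3 and TMEM45A had neither in this window. A match is a run of letters and not a measured binding site, and these windows leave out more distant elements.

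The score genes were high in the members of every sgRNA group. IGFBP3 encodes a secreted protein that binds insulin-like growth factors (ENSG00000146674, chromosome 7, 45912245 to 45921272, GRCh38.p14). Its level was 392 CPM in members (exact interval 375 to 410) and 10.7 CPM in remaining cells (10.2 to 11.3). Over the 7 sgRNA groups it ranged from 256 to 799 CPM in members, with a median of 339 CPM, and from 8.79 to 10.3 CPM in remaining cells, with a median of 9.27 CPM. NDRG1 encodes a stress-responsive cytoplasmic protein (ENSG00000104419, chromosome 8, 133237175 to 133297252) and stood at 97.4 CPM in members and 5.60 CPM in remaining cells. EGLN3 encodes an oxygen-sensing prolyl hydroxylase (ENSG00000129521, chromosome 14, 33924227 to 33951074) and stood at 104 CPM in members and 6.70 CPM in remaining cells. The membrane protein gene TMEM45A (ENSG00000181458, chromosome 3, 100492619 to 100577444) stood at 96.2 CPM in members and 5.05 CPM in remaining cells. P4HA1 encodes the catalytic subunit of collagen prolyl 4-hydroxylase (ENSG00000122884, chromosome 10, 73007217 to 73096866) and stood at 121 CPM in members and 14.7 CPM in remaining cells. For none of the 5 genes did the 7 values of members overlap the 7 values of remaining cells, which the rule fixes.

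**Figure D1:**
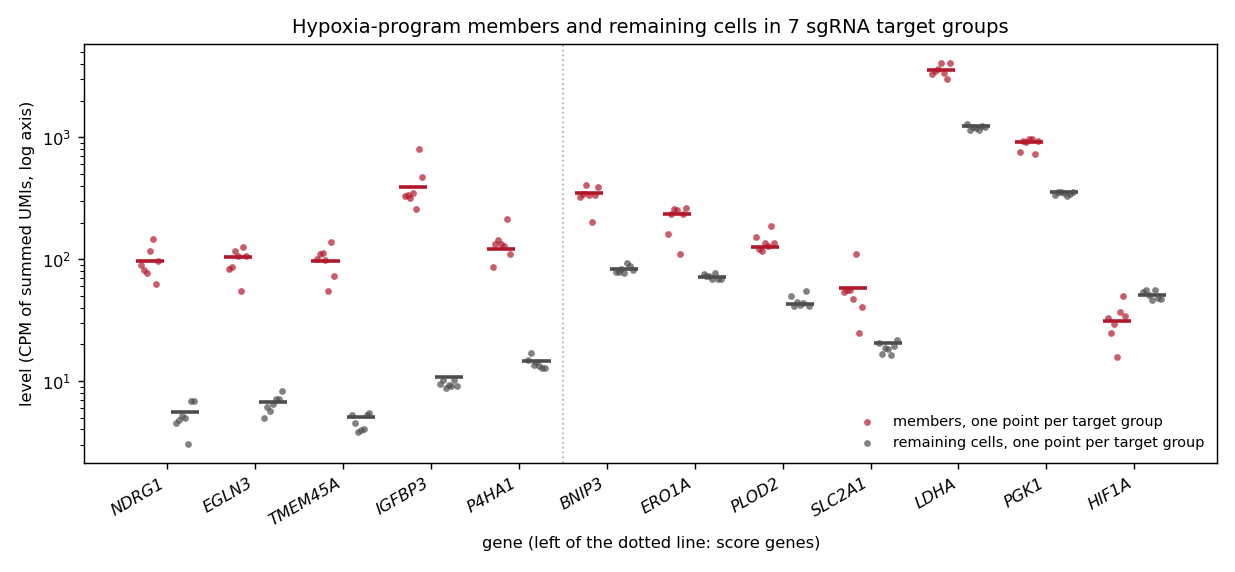
Level of the 5 score genes (left of the dotted line) and of 7 genes outside the score, as CPM of summed UMIs on a log axis, with 1 point for each of the 7 sgRNA groups and a bar for all cells of the set. BNIP3, ERO1A, PLOD2, LDHA and PGK1 are higher in the members of every group with no overlap of the points, as is SLC2A1, and HIF1A lies lower in members with points that overlap.

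A score gene was also high in cells chosen without it. When the cells were chosen by the other 4 genes, IGFBP3 stood at 269 CPM in the top 5% and 15.8 CPM in the rest, a ratio of 17.0. The same ratio was 13.4 for TMEM45A, with 77.1 CPM in the top 5% and 5.76 CPM in the rest. For NDRG1 it was 12.6, for EGLN3 11.3 and for P4HA1 5.95. Leaving out IGFBP3 kept 389 of the 507 members (76.7%), the fewest of the 5 choices, and leaving out any other gene kept between 449 and 464. All 5 genes come from the same cells and share their depth. The score was also set with earlier results of these data known, so high ratios were partly built into the choice of genes. They describe how the genes go together in this culture and are no test of it.

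Most members held UMIs of several score genes. A UMI of 1 score gene was found in 38 members (7.50%), of 2 genes in 88, of 3 in 178, of 4 in 151 and of all 5 in 52 members (10.3%). Among the remaining cells, 5990 (62.2%) held no score UMI, 2790 held UMIs of 1 score gene and 2 cells held UMIs of all 5. IGFBP3 supplied 48.4% of the members' score UMIs and was detected in 86.0% of members and 10.97% of remaining cells. NDRG1 was detected in 53.3% of members and 6.84% of remaining cells, and P4HA1 in 67.5% of members and 17.2% of remaining cells. With every cell thinned to 5000 gene UMIs, which left out 43 members and 190 remaining cells of lower depth, IGFBP3 was detected in 73.5% of members and 4.94% of remaining cells. The culture holds no cell type that should lack these genes, so the part of free RNA in the shares of the remaining cells was not measured.

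Across the 5288 other genes with at least 20 CPM over all kept cells, 249 (4.71%) were at least 1.5-fold higher in members and 655 (12.4%) were at least 1.5-fold lower. Of these, 159 of the higher and 373 of the lower genes had the same direction in all 7 sgRNA groups. The same share over all tested genes is not given here, so these 2 counts have no background. The MYC group held 6 members and the PGAM1 group 8, so single UMIs can set a direction there. The median log2 ratio of members over remaining cells was -0.12 over all tested genes. At a ratio of 2 or more, 75 genes were higher and 132 were lower. The shares of 4.71% higher and 12.4% lower are the background for the gene lists that follow.

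The largest ratio belonged to WFDC3, a gene of the whey acidic protein family of protease inhibitors. It stood at 149 CPM in members (interval 138 to 160) and 28.8 CPM in remaining cells (27.9 to 29.7), a 5.16-fold ratio. Over the groups it ranged from 112 to 186 CPM in members and from 23.3 to 30.7 CPM in remaining cells, so the groups did not overlap. AGR2, an endoplasmic reticulum protein of mucus-making epithelium, stood at 328 CPM in members and 81.7 CPM in remaining cells (4.01-fold; 288 to 427 CPM in members against 69.4 to 144 CPM in remaining cells over the groups). The other genes among the 15 largest ratios with 1 direction in all groups were BNIP3, C4orf3, KRT15, ERO1A, CEACAM6, DSP, BHLHE40, SRD5A3, LDHA, PSCA, UCA1, PLOD2 and ELF3. The keratin KRT15 (89.7 CPM in members, 27.0 CPM in remaining cells), the desmosome protein DSP (227 CPM in members, 70.7 CPM in remaining cells) and the epithelial transcription factor ELF3 (277 CPM in members, 96.6 CPM in remaining cells) are epithelial genes outside the textbook hypoxia response. The long non-coding RNA UCA1 stood at 187 CPM in members and 64.6 CPM in remaining cells, and SRD5A3, a polyprenol reductase of protein glycosylation, at 88.3 CPM in members and 28.4 CPM in remaining cells. The 15 smallest ratios included the replication checkpoint gene CLSPN (6.53 CPM in members, 25.9 CPM in remaining cells), the stress-induced NUPR1 (10.9 CPM in members, 38.4 CPM in remaining cells) and the cytokine LTB (11.9 CPM in members, 40.4 CPM in remaining cells). They also included CTPS1, which makes the nucleotide CTP (12.5 CPM in members, 35.4 CPM in remaining cells), PLAU, a secreted protease of plasminogen (20.6 CPM in members, 55.7 CPM in remaining cells), and MESP1, a transcription factor known from early mesoderm (7.32 CPM in members, 22.4 CPM in remaining cells). The rest of the 15 were KIF4A, AREG, CENPK, CXCL1, ODC1, CENPM, CCNA2, MYBL2 and TYMS.

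Known HIF targets outside the score were higher in members as a group. Of 56 listed genes, 22 were tested, 19 were at least 1.5-fold higher and none was lower, against 4.71% higher and 12.4% lower among all tested genes, and the median log2 ratio was 1.12 against -0.12 over all tested genes. The summed level of the 56 genes was 3352 CPM in members and 1308 CPM in remaining cells. Over the 7 groups it ranged from 2851 to 3707 CPM in members, with a median of 3396 CPM, and from 1215 to 1401 CPM in remaining cells, with a median of 1299 CPM, so that no group of remaining cells reached the lowest group of members. The list median within a group lay between 1.06 (ATF4 sgRNAs) and 1.28 (PGAM1 sgRNAs), with 1.24 in cells with non-targeting sgRNAs.

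Of these targets, BNIP3, a receptor for the removal of mitochondria (ENSG00000176171, chromosome 10, 131967684 to 131981923), stood at 348 CPM in members (332 to 365) and 83.4 CPM in remaining cells (81.8 to 85.0), a 4.18-fold ratio. Over the groups it ranged from 201 to 409 CPM in members and from 76.9 to 93.2 CPM in remaining cells. Its lowest member value came from the 6 MYC members and still lay above all remaining cells. ERO1A, an oxidase that helps form disulfide bonds in the endoplasmic reticulum (chromosome 14, 52639915 to 52695558), stood at 235 CPM in members and 70.9 CPM in remaining cells (3.31-fold, interval 3.11 to 3.52), with 110 to 263 CPM in members against 68.5 to 77.0 CPM in remaining cells over the groups. HILPDA, a lipid droplet protein, stood at 105 CPM in members and 32.9 CPM in remaining cells (3.20-fold), and was lower in 1 group, the MYC members, where 1 UMI gave 18.3 CPM. BHLHE40, a transcriptional repressor, stood at 60.4 CPM in members and 19.3 CPM in remaining cells (3.12-fold). It passed the filter of 20 CPM over all kept cells only through its level in members. Its count among the higher HIF targets and its place among the 15 largest ratios are therefore partly fixed by the filter. PLOD2, a lysyl hydroxylase of collagen, stood at 125 CPM in members and 43.2 CPM in remaining cells, with 118 to 187 CPM in members against 41.0 to 54.4 CPM in remaining cells over the groups. The glucose transporter SLC2A1 stood at 58.0 CPM in members and 20.7 CPM in remaining cells, with 24.96 to 110 CPM in members against 16.2 to 21.7 CPM in remaining cells over the groups. PLIN2, a lipid droplet coat protein, stood at 74.0 CPM in members and 26.7 CPM in remaining cells. The HIF feedback gene CITED2 stood at 69.5 CPM in members and 25.1 CPM in remaining cells, and the metallothionein MT1X, which has close paralogs that could share reads, at 309 CPM in members and 116 CPM in remaining cells. The remaining 10 genes at least 1.5-fold higher were BNIP3L, FAM162A, INSIG2, MXI1, ANKZF1, AK4, WSB1, DDIT4, EGLN1 and NARF. Like HILPDA, the genes CITED2, ANKZF1, WSB1 and DDIT4 were lower in members in 1 group each, and NARF was lower in 2. VEGFA, the angiogenic growth factor most often named with HIF, stayed below that ratio, with 49.3 CPM in members and 34.5 CPM in remaining cells. STC2 (43.0 CPM in members, 37.3 CPM in remaining cells) stayed below it too.

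The other 34 HIF targets were under 20 CPM over all cells and outside the tested genes. Of these, 29 had at least 5 UMIs in members. The level was higher in members for 33 of the 34, and these genes are described without counting them as called. Some of the 33 rest on very few member UMIs: PPP1R3C had 1, LOX 3, and SLC2A3 and RORA 4 each. RORA was lower in members in 6 of the 7 groups. The matching share over all genes under the filter is not given here, so the count has no background and is not read as a result. CA9, the carbonic anhydrase at the cell surface, stood at 57.8 CPM in members (51.4 to 64.8) and 2.71 CPM in remaining cells (2.44 to 3.01), a ratio of 21.3. It was detected in 39.8% of members and 3.21% of remaining cells. ANGPTL4, a secreted inhibitor of lipoprotein lipase, stood at 29.1 CPM in members and 1.41 CPM in remaining cells, and the hormone STC1 at 16.6 CPM in members and 0.669 CPM in remaining cells. MIR210HG, the host transcript of a hypoxia-induced microRNA, stood at 50.9 CPM in members and 4.14 CPM in remaining cells. ANKRD37 (28.9 CPM in members, 2.66 CPM in remaining cells), the pyruvate dehydrogenase kinase PDK1 (37.0 CPM in members, 8.93 CPM in remaining cells) and the peptide hormone precursor ADM (33.3 CPM in members, 6.85 CPM in remaining cells) showed the same direction. CA12, a second carbonic anhydrase, was the exception, with 2 UMIs in members (0.396 CPM) and 0.676 CPM in remaining cells.

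Glycolysis transcripts were higher in members, with uneven sizes along the pathway. Of 15 tested genes 7 were at least 1.5-fold higher and 1 was lower, with a median log2 ratio of 0.55. The summed level of the 22 listed genes was 18432 CPM in members and 11089 CPM in remaining cells, with 13928 to 20924 CPM in members against 10263 to 11672 CPM in remaining cells over the groups. The lowest of these member values came from the 8 members with PGAM1 sgRNAs, whose target is itself a listed gene, and its cause was not tested. LDHA, which turns pyruvate into lactate, stood at 3604 CPM in members (3551 to 3656) and 1233 CPM in remaining cells (1227 to 1239), a 2.92-fold ratio. Over the groups LDHA ranged from 2995 to 4075 CPM in members and from 1145 to 1290 CPM in remaining cells. PGK1, the ATP-making phosphoglycerate kinase, stood at 912 CPM in members and 356 CPM in remaining cells (2.56-fold), with 724 to 971 CPM in members against 331 to 356 CPM in remaining cells over the groups. GPI (183 CPM in members, 93.9 CPM in remaining cells), PFKP (144 CPM in members, 79.7 CPM in remaining cells) and GAPDH (10135 CPM in members, 6550.4 CPM in remaining cells) also passed a ratio of 1.5. TPI1, PGAM1, PFKL, PKM, ENO1 and HK1 had log2 ratios between 0.22 and 0.55. Isoenzymes of some of these steps lay under the filter of 20 CPM. They were ENO2 (56.2 CPM in members, 14.9 CPM in remaining cells) and HK2 (9.90 CPM in members, 3.58 CPM in remaining cells). The aldolases ALDOA (38.6 CPM in members, 17.4 CPM in remaining cells) and ALDOC (19.2 CPM in members, 6.16 CPM in remaining cells) lay there too. All 7 listed genes under the filter were higher in members, a count without background. LDHB, the subunit that favours the return of lactate to pyruvate, had a log2 ratio of -0.51, with 485 CPM in members and 692 CPM in remaining cells. The lactate exporter SLC16A3 stood at 72.4 CPM in members and 36.02 CPM in remaining cells, whereas the related carrier SLC16A1 stood at 19.2 CPM in members and 35.4 CPM in remaining cells.

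The oxygen-sensing machinery itself did not share 1 direction. EGLN1 stood at 42.8 CPM in members and 27.4 CPM in remaining cells (1.56-fold). HIF1A, the alpha subunit, was 1.63-fold lower, with 31.3 CPM in members (26.6 to 36.5) and 51.0 CPM in remaining cells (49.8 to 52.3). Over the groups HIF1A ranged from 15.8 to 49.9 CPM in members and from 46.5 to 55.7 CPM in remaining cells, lower in 6 of 7 groups and with overlap. EPAS1, which encodes HIF-2 alpha, had 37.6 CPM in members and 32.9 CPM in remaining cells, VHL 29.1 CPM in members and 35.5 CPM in remaining cells, and EGLN2 26.9 CPM in members and 29.1 CPM in remaining cells.

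Of 6 tested mitophagy and autophagy genes, the mitochondrial receptors BNIP3 and BNIP3L were at least 1.5-fold higher and none was lower. BNIP3L stood at 251 CPM in members and 93.7 CPM in remaining cells, with 196 to 299 CPM in members against 84.7 to 95.2 CPM in remaining cells over the groups. The general autophagy genes SQSTM1 (log2 ratio -0.43) and MAP1LC3B (-0.49) did not share that direction. The 4 listed genes under the filter of 20 CPM were mixed. FUNDC1, a further mitophagy receptor, had 13.3 CPM in members and 18.96 CPM in remaining cells. The other 3 were higher in members. PINK1 had 26.1 CPM in members and 18.4 CPM in remaining cells. ULK1 had 13.1 CPM in members and 8.09 CPM in remaining cells, and WIPI1 11.1 CPM in members and 6.52 CPM in remaining cells. Of 47 tested nuclear genes of the respiratory chain, 7 were at least 1.5-fold lower and none higher, with a median log2 ratio of -0.30. Their share of lower genes, 7 of 47, is near the 12.4% of all tested genes. The summed level of all 49 listed genes was 13731 CPM in members and 17006 CPM in remaining cells. The groups did not overlap, with 12530 to 14654 CPM in members and 16449 to 17213 CPM in remaining cells. NDUFS6 of complex I (436 CPM in members, 792 CPM in remaining cells) and ATP5MC1 of the ATP synthase (115 CPM in members, 211 CPM in remaining cells) had the lowest ratios among them that passed. Of the 13 mitochondrially encoded genes, 1 (MT-ND5, with 994 CPM in members and 1833 CPM in remaining cells) was lower, and the median log2 ratio was -0.29, while MT-ND6 had a log2 ratio of 0.495. The summed level of the 13 genes ran from 73538 to 100243 CPM in members and from 93647 to 107883 CPM in remaining cells over the groups, which overlapped, and in the PGAM1 group it was higher in members (100243 CPM) than in remaining cells (93647 CPM). Members held a lower share of mitochondrial UMIs, with a median of 7.91% in members and 10.7% in remaining cells, and the 20% limit on that share was part of the cell filter.

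Collagen-modifying and matrix genes were described by 8 tested genes, of which PLOD2 and FN1 were higher and none was lower. Fibronectin FN1 stood at 70.9 CPM in members and 28.2 CPM in remaining cells, but was higher in members in 4 of the 7 groups only. P4HB, the partner subunit of P4HA1, had a log2 ratio of 0.55, with 310 CPM in members and 212 CPM in remaining cells.

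**Figure D2:**
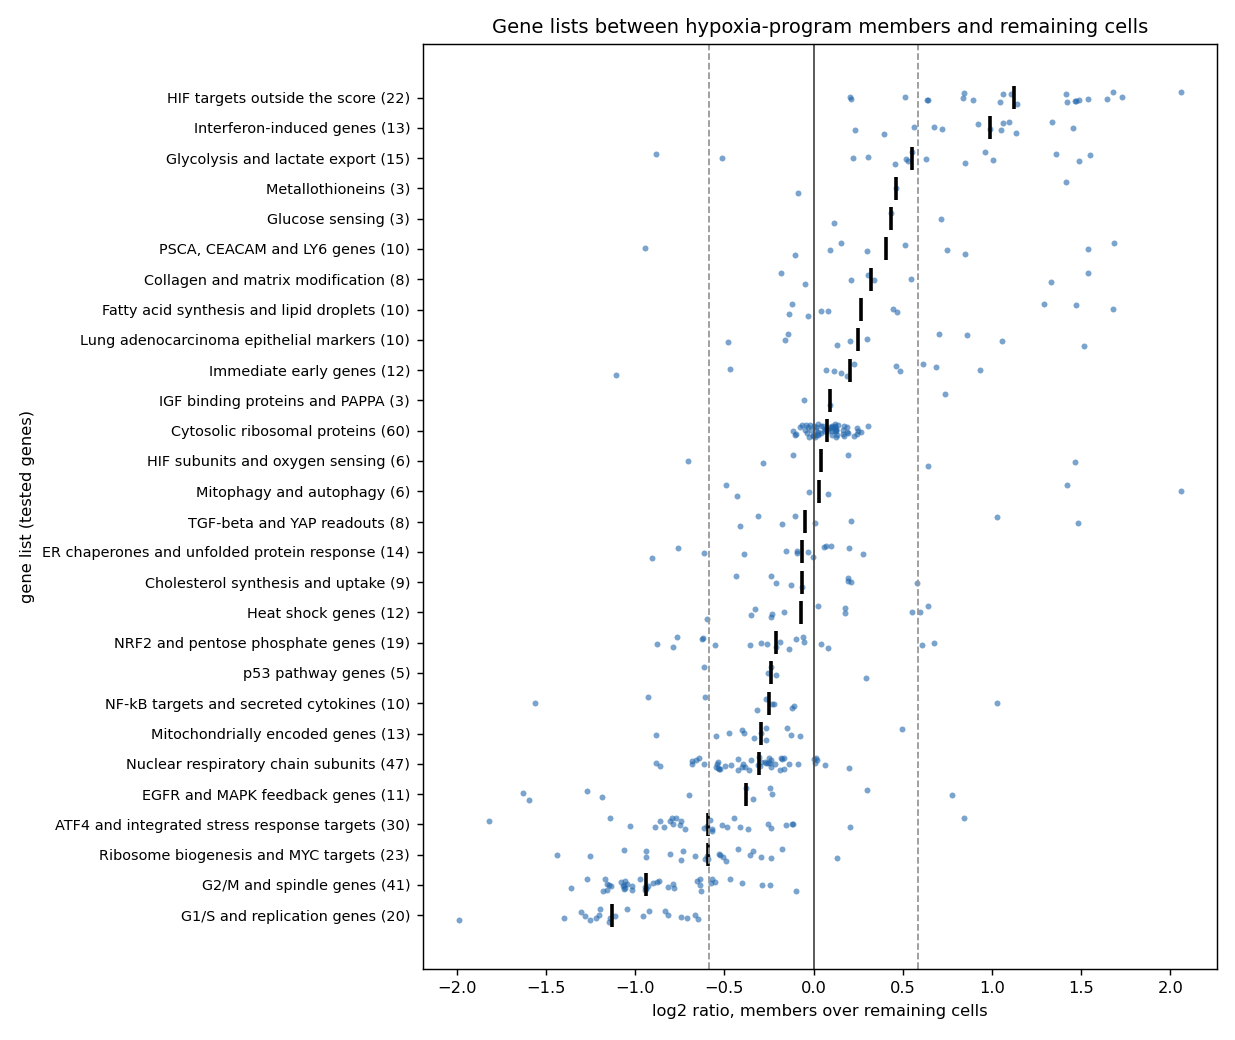
Log2 ratio of members over remaining cells for each tested gene of 28 gene lists (blue points), the list median (black bar) and a ratio of 1.5 in either direction (dashed lines), with the number of tested genes in parentheses. HIF targets and interferon-induced genes lie farthest to the right with medians of 1.12 and 0.99, and G1/S and G2/M genes farthest to the left with medians of -1.13 and -0.94.

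Cell cycle transcripts were lower in members. All 20 tested G1/S and replication genes were at least 1.5-fold lower, with a median log2 ratio of -1.13, and so were 33 of 41 tested G2/M and spindle genes, with a median of -0.94. PCNA, the sliding clamp of DNA replication, stood at 51.5 CPM in members and 118 CPM in remaining cells, TYMS, which makes thymidylate, at 15.4 CPM in members and 40.7 CPM in remaining cells, and the spindle gene TPX2 at 40.4 CPM in members and 103 CPM in remaining cells. Summed G1/S levels overlapped between groups, with 454 to 1392 CPM in members and 1182 to 1349 CPM in remaining cells, and in the MYC group, with 6 members, the level was higher in members (1392 CPM) than in remaining cells (1182 CPM). Summed G2/M levels overlapped as well, with 1410 to 5367 CPM in members and 3026 to 4005 CPM in remaining cells. The highest member value came from the 6 MYC members. By phase scores, 84.4% of members (interval 81.0 to 87.5%) and 57.1% of remaining cells (56.1 to 58.1%) were scored as G1. At 5000 UMIs per cell, 84.9% of members and 59.4% of remaining cells were scored as G1. Phase scores and the lists share genes, so these values are 1 description and not separate results. Among G1-scored cells, with members chosen anew, the median log2 ratio was 1.16 for HIF targets, 0.56 for glycolysis and 0.89 for interferon-induced genes.

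About as many ribosome biogenesis genes and ATF4 targets were lower as did not pass the ratio. Of 23 tested ribosome biogenesis and MYC target genes 12 were lower and none higher, with a median log2 ratio of -0.59. The summed level of the 30 listed genes was 4975 CPM in members and 6429 CPM in remaining cells. The groups did not overlap, with 4415 to 5204 CPM in members and 5532 to 6677 CPM in remaining cells. ODC1, the first enzyme of polyamine synthesis, stood at 47.3 CPM in members and 128 CPM in remaining cells. Of 30 tested ATF4 and integrated stress response targets 15 were lower and 1 (DDIT4) was higher, with a median of -0.59. The summed level of the 41 listed genes was 3116 CPM in members and 4395 CPM in remaining cells. Over the groups it ran from 2637 to 3694 CPM in members and from 3571 to 4747.5 CPM in remaining cells, which overlapped. The lowest value of each set came from cells with ATF4 sgRNAs. The serine synthesis enzyme PSAT1 stood at 109 CPM in members and 240 CPM in remaining cells, with 62.4 to 120 CPM in members against 174 to 288 CPM in remaining cells over the groups, which did not overlap. PHGDH, the first enzyme of that route, stood at 333 CPM in members and 549 CPM in remaining cells, and the cystine carrier SLC7A11 at 63.3 CPM in members and 109 CPM in remaining cells. DDIT4, a known HIF target as well as an ATF4 target, stood at 224 CPM in members and 125 CPM in remaining cells. ATF4 itself had 318 CPM in members and 345 CPM in remaining cells. Of 14 endoplasmic reticulum chaperone genes 3 were lower (SDF2L1, CRELD2 and DNAJB11) and none higher, and none of 60 cytosolic ribosomal protein genes passed a ratio of 1.5, with a median of 0.08.

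Of 11 tested EGFR and MAPK feedback genes 5 were lower and 1 was higher. Among the lower were 3 ligands of the EGF receptor, AREG, EREG and HBEGF. AREG stood at 32.1 CPM in members (27.3 to 37.4) and 99.2 CPM in remaining cells (97.5 to 101), with 0 to 54.95 CPM in members against 64.6 to 114 CPM in remaining cells over the groups, which did not overlap. EREG stood at 14.6 CPM in members and 44.3 CPM in remaining cells, and HBEGF at 16.6 CPM in members and 40.1 CPM in remaining cells. The ligand TGFA, under the filter of 20 CPM, had 10.9 CPM in members and 12.7 CPM in remaining cells. The other lower genes were ETV5 and PHLDA1, and the higher gene was the receptor inhibitor ERRFI1 (107 CPM in members, 62.4 CPM in remaining cells). EGFR itself had 479 CPM in members and 389 CPM in remaining cells, and the phosphatase DUSP6 28.3 CPM in members and 35.8 CPM in remaining cells. Of 10 NF-kB targets and secreted cytokines, CXCL1, NFKB1 and CXCL8 were lower and INHBA was higher (89.9 CPM in members, 44.0 CPM in remaining cells). Of 12 immediate early genes, FOS (167 CPM in members, 87.4 CPM in remaining cells), JUN (109 CPM in members, 71.5 CPM in remaining cells) and KLF6 (61.4 CPM in members, 38.1 CPM in remaining cells) were higher and FOSL1 was lower (14.6 CPM in members, 31.6 CPM in remaining cells).

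Interferon-induced genes were higher in members although they took no part in the score. Of 13 tested genes 10 were at least 1.5-fold higher and none was lower, with a median log2 ratio of 0.99. The summed level of the 20 listed genes was 2985 CPM in members and 1555 CPM in remaining cells. Over the groups it ranged from 2543 to 4579 CPM in members and from 1378 to 2560 CPM in remaining cells, higher in the members of each group but with overlap between groups. The highest values of both sets, 4579 CPM in members and 2560 CPM in remaining cells, came from cells with MYC sgRNAs. IFI6, a mitochondrial protein induced by interferon, stood at 201 CPM in members (188 to 214) and 73.1 CPM in remaining cells (71.7 to 74.6), with 190 to 366 CPM in members against 56.9 to 181 CPM in remaining cells over the groups. IFI27 stood at 384 CPM in members and 152 CPM in remaining cells, the ubiquitin-like ISG15 at 423 CPM in members and 198 CPM in remaining cells, and the antiviral GTPase MX1 at 125 CPM in members and 62.6 CPM in remaining cells. IFIT1, OAS1, DDX58, IFITM3 and IRF7 passed as well, and the reads of IFITM3 could be shared with its close paralogs.

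Surface and epithelial genes differed in part. Of 10 tested PSCA, CEACAM and LY6 genes 4 were higher and 1 (the protease inhibitor PI3) was lower. CEACAM6, a cell adhesion protein with close paralogs, stood at 176 CPM in members and 54.8 CPM in remaining cells, with 87.4 to 348 CPM in members against 44.3 to 115 CPM in remaining cells over the groups, which overlapped. PSCA stood at 222 CPM in members and 76.3 CPM in remaining cells, and was detected in 67.5% of members and 51.0% of remaining cells. LY6D (406 CPM in members, 225 CPM in remaining cells) and LYPD3 (54.8 CPM in members, 32.7 CPM in remaining cells) were higher too. Of 10 lung adenocarcinoma epithelial markers KRT19, CDH1, CLDN4 and ELF3 were higher and none was lower. The keratin KRT19 stood at 4399 CPM in members and 2118 CPM in remaining cells, with 3295 to 5091 CPM in members against 1534 to 2643 CPM in remaining cells over the groups. KRT18 was the farthest in the other direction, with a log2 ratio of -0.48. EPCAM had 241 CPM in members and 269 CPM in remaining cells, so the members carried the epithelial markers of the line.

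Smaller lists gave single genes. SCD, the stearoyl-CoA desaturase, stood at 215 CPM in members and 87.6 CPM in remaining cells. With PLIN2 and HILPDA, both counted above as HIF targets, it made up the 3 higher genes among 10 of fatty acid synthesis and lipid droplets. The other 7 passed in neither direction, and of 6 listed genes under the filter 4 were lower. The summed level of the list, which includes SCD, PLIN2 and HILPDA, did not overlap between groups (879 to 980 CPM in members, 619 to 663 CPM in remaining cells). None of 9 tested cholesterol genes passed a ratio of 1.5. F3, tissue factor, stood at 129 CPM in members and 46.3 CPM in remaining cells, and was higher together with INHBA among 8 TGF-beta and YAP readouts, none of which was lower. Of 19 NRF2 and pentose phosphate genes 5 were lower, among them SRXN1, SLC7A11, GCLM and AKR1B10, and 2 were higher: the ferritin chain FTH1, with 25642 CPM in members and 16048 CPM in remaining cells, and TKT. IGFBP6 was the 1 higher of 3 tested IGF binding genes outside the score (270 CPM in members, 162 CPM in remaining cells), and TXNIP the 1 higher of 3 glucose-sensing genes (257 CPM in members, 157 CPM in remaining cells). MT1X was the 1 higher of 3 metallothioneins. Of 12 heat shock genes HSPA1B, which has a near-identical copy, and HSPB1 were higher and HSPD1 was lower, and of 5 p53 pathway genes BAX was lower. HSPA1B stood at 19.9 CPM in remaining cells, so it passed the filter of 20 CPM only through its level in members.

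Markers of other cell types were at or near 0. The 6 fibroblast markers summed to 1.98 CPM in members and 1.96 CPM in remaining cells, with a range over groups of 0 to 7.88 CPM in members and 1.43 to 2.03 CPM in remaining cells, and COL1A2, COL3A1, DCN, LUM and PDGFRB had no UMI in members. The 4 endothelial markers summed to 1.39 CPM in members and 2.14 CPM in remaining cells, with 0 to 1.97 CPM in members against 1.52 to 5.07 CPM in remaining cells over the groups, and PECAM1, VWF and KDR had no UMI in members. The 7 leukocyte markers summed to 41.4 CPM in members and 20.4 CPM in remaining cells, with 29.6 to 73.3 CPM in members against 15.2 to 25.3 CPM in remaining cells over the groups. CD68, a lysosomal protein gene not limited to leukocytes, gave 39.6 CPM of that sum in members and 18.7 CPM in remaining cells, while CD3E, CD3D and MS4A1 had no UMI in members and PTPRC had 1. A small set of cells with GTSF1 and FABP5 stands apart in this culture, and those 2 genes summed to 11.9 CPM in members and 22.02 CPM in remaining cells.

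Members were shallower than the remaining cells. Their median was 9329 gene UMIs and 2732 genes, against 12375 gene UMIs and 3418 genes in remaining cells. By quartile of gene UMIs, members made up 11.6% of the shallowest kept cells, 4.34% of the next, 1.81% of the third and 2.25% of the deepest. A shallow cell can reach the score limit with few UMIs: of the members nearest to it, 1 had a single score UMI among 2620 gene UMIs. With all cells thinned to 5000 UMIs and scored again, the shares in the same quartiles were 10.3%, 4.69%, 2.49% and 2.96%, and 360 cells were members both ways (72.7% of the 495 chosen after thinning, 71.0% of the 507). Within the quartiles, the median log2 ratio of the HIF targets was 1.10, 1.16, 1.14 and 0.98, and with the remaining cells weighted to the depth of the members it was 1.10. With that weighting the median was 0.80 for interferon-induced genes, -0.78 for G1/S genes and -0.59 for G2/M genes. The part of depth in the other differences was not tested, and fewer UMIs per cell and less RNA per cell cannot be told apart here.

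HIF targets, glycolysis, interferon-induced, G1/S, G2/M and mitochondrially encoded genes shifted step by step with the number of score UMIs at equal depth, whereas 4 of the 12 lists followed did not. Whether the members form a group apart from other cells was not tested. Among cells thinned to 5000 UMIs, 7666 had no score UMI, 1574 had 1, 286 had 2, 221 had 3 to 4, 135 had 5 to 9 and 27 had 10 or more. The summed level of the HIF targets outside the score was 1276, 1459, 2120, 2983, 3790 and 4963 CPM in these bands, in that order. Glycolysis genes stood at 10846 CPM with no score UMI and 21319 CPM in the highest band. Interferon-induced genes stood at 1569 CPM with no score UMI and 3970 CPM in the highest band, and G2/M genes at 3222 CPM with no score UMI and 978 CPM in the highest band. Mitochondrially encoded genes stood at 104909 CPM with no score UMI and 66615 CPM in the highest band. The median depth before thinning moved with the bands too, with 12604 UMIs in cells with no score UMI and 8241 UMIs in the highest band. EGFR and MAPK feedback genes had no steady course, with 1050, 1035, 957, 886, 1059 and 1044 CPM. ATF4 targets stood at 4421 CPM with no score UMI, at 2779 CPM with 5 to 9 and at 3037 CPM in the highest band.

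**Figure D3:**
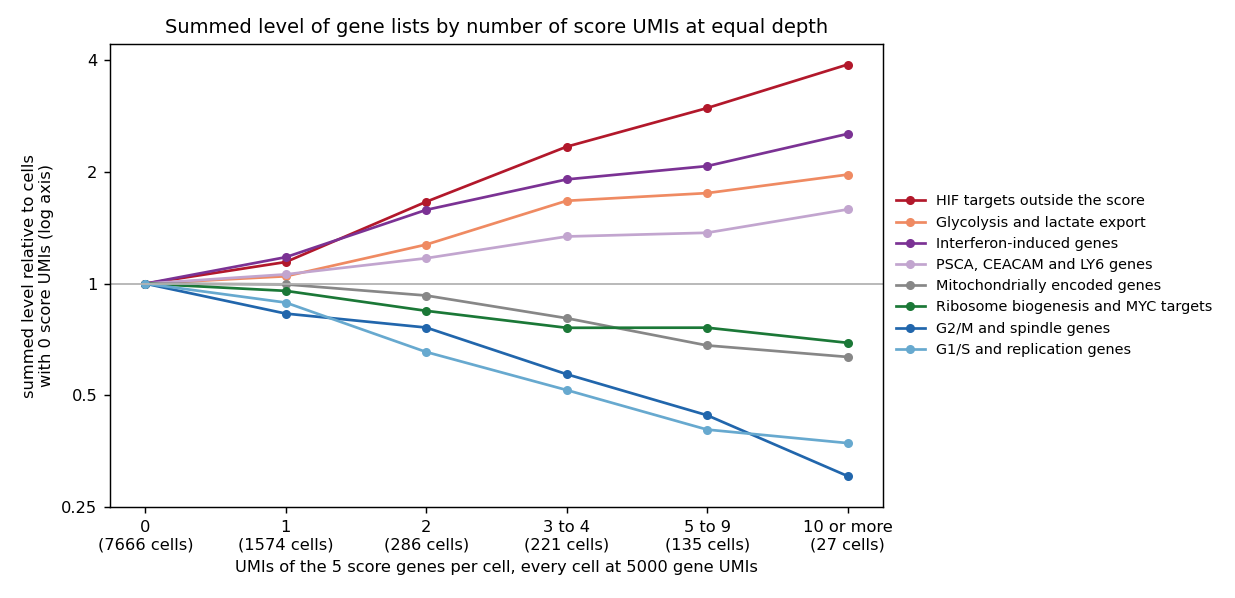
Summed level of 8 gene lists in cells thinned to 5000 gene UMIs, by the number of UMIs of the 5 score genes, relative to cells with no score UMI (log axis). HIF targets climb at each step, 1276 CPM at 0 UMIs and 4963 CPM at 10 or more, while G2/M genes descend at each step, 3222 CPM at 0 and 978 CPM at 10 or more.

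Members differed among themselves by the strength of the score and by its leading gene. In the 253 members of higher score the HIF targets outside the score summed to 3895 CPM, and in the 254 of lower score to 2893 CPM, still above the 1308 CPM of the remaining cells. IGFBP3 had the most score UMIs in 266 members, P4HA1 in 49, TMEM45A in 39, EGLN3 in 32 and NDRG1 in 25, with ties in 96. The strength of the score differed between these sets as well. Its median was 519 CPM in members led by P4HA1, 555 CPM with EGLN3, 727 CPM with NDRG1, 805 CPM with IGFBP3 and 808 CPM with TMEM45A. The part of score strength in the differences by leading gene was not tested. The HIF targets summed to 4295 CPM in the members led by NDRG1, to 3796 CPM in those led by TMEM45A, to 3442 CPM in those led by EGLN3, to 3311 CPM in those led by IGFBP3 and to 2843 CPM in those led by P4HA1. G2/M genes ranged from 1652 CPM in members led by EGLN3 to 3433 CPM in those led by TMEM45A, near the 3456 CPM of the remaining cells. Members with 1 score gene, whose median depth was 4674.5 UMIs, had 2948 CPM of HIF targets and 90693 CPM of mitochondrially encoded genes. Members with all 5 had 3784 CPM of HIF targets and 67764 CPM of mitochondrially encoded genes. The median score of these 2 sets was 552 CPM with 1 score gene and 962 CPM with all 5.

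The sgRNA took no part in choosing the members, so their share could be tested between targets and controls, with each sgRNA as 1 value. The 6 comparisons share the same 4 control sgRNAs and 1 culture. With PGAM1 sgRNAs, against a glycolytic enzyme, members made up 1.87%, 2.22%, 2.70% and 3.70% of the cells of the 4 sgRNAs, a mean of 2.62 ± 0.796% (SD, n = 4). With the 4 non-targeting sgRNAs they made up 4.27%, 5.66%, 6.67% and 10.4%, a mean of 6.75 ± 2.62% (SD, n = 4). The 4 PGAM1 values all lay below the 4 control values, a difference of -4.12 percentage points. The exact two-sided permutation test over sgRNAs gave p = 0.0286, the smallest that 4 against 4 allows. The exact permutation p was 0.0857 after Benjamini-Hochberg adjustment over the 6 targets, above the threshold of 0.05. With 4 against 4 sgRNAs that threshold could be passed only if several other targets also had small p-values. The miss therefore does not decide whether the PGAM1 share differs. Pooled over cells, 8 of 333 PGAM1 cells (2.40%, exact binomial interval 1.04 to 4.68%) and 44 of 700 control cells (6.29%, 4.604 to 8.35%) were members.

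With CTNNB1 sgRNAs, against beta-catenin, the lowest share was 3.12%, the median 3.78% and the highest 5.08% over 6 sgRNAs, a mean of 3.91 ± 0.645%. Its highest value lay above the lowest control, and the difference from controls was -2.84 percentage points (exact permutation p = 0.00952, adjusted p = 0.0571, lower than the control mean in 6 of 6 sgRNAs). With ATF4 sgRNAs, against the main effector of the integrated stress response, the shares ran from 2.37 to 6.77% with a median of 3.82%, a mean of 4.26 ± 1.82% and a difference of -2.49 points (exact permutation p = 0.105, adjusted p = 0.210). CTCF sgRNAs gave 5.82 ± 1.55% (exact permutation p = 0.524, adjusted p = 0.786, n = 6) and JUN sgRNAs 6.27 ± 2.64% (exact permutation p = 0.781, adjusted p = 0.933, n = 6). The 2 MYC sgRNAs with at least 20 cells gave 0 of 23 cells, which allows a share of up to 13.0%, and 11.1%, a design in which the smallest possible p is 0.0667 (exact permutation p = 0.933). Without control sgRNA 4, the highest of the controls, the difference was -1.62 points for CTNNB1, -1.27 for ATF4 and -2.91 for PGAM1, and the signs for CTCF, JUN and MYC turned (0.28, 0.74 and 0.024). CTNNB1 sgRNA 5 had the highest share of its target and was the only one above the lowest control. Without it the CTNNB1 difference was -3.07 points (exact permutation, adjusted p = 0.0476), a pass that follows from which sgRNA was left out. Leaving out 1 sgRNA at a time gave adjusted p between 0.0476 and 0.0857 for CTNNB1 (exact permutation). With the members as chosen and all sgRNAs, no target passed the adjusted threshold, and a share that misses it is not shown to equal that of the controls. With members chosen anew, the threshold was passed for ATF4 among cells with no more than 10% mitochondrial UMIs (-5.11 points, exact permutation, adjusted p = 0.0238). It was passed for CTNNB1 after thinning to 5000 UMIs (-3.51 points) and with a score without TMEM45A (-3.03 points, exact permutation, adjusted p = 0.0286 for both). Median depth was 10276 gene UMIs with MYC, 11824 with JUN, 11929 with PGAM1, 11962 with CTCF, 12564 with ATF4 and 12660 with CTNNB1, against 12110.5 in control cells. Member shares over the depth quartiles were 11.6%, 4.34%, 1.81% and 2.25%, so they fell up to the third quartile and not beyond it. At equal depth, with cells thinned to 5000 UMIs and scored again, the differences were -2.63 points for ATF4 and -3.59 for PGAM1 (exact permutation, adjusted p = 0.221 and 0.0857). Cells with no single assigned sgRNA held 5.19% members.

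**Figure D4:**
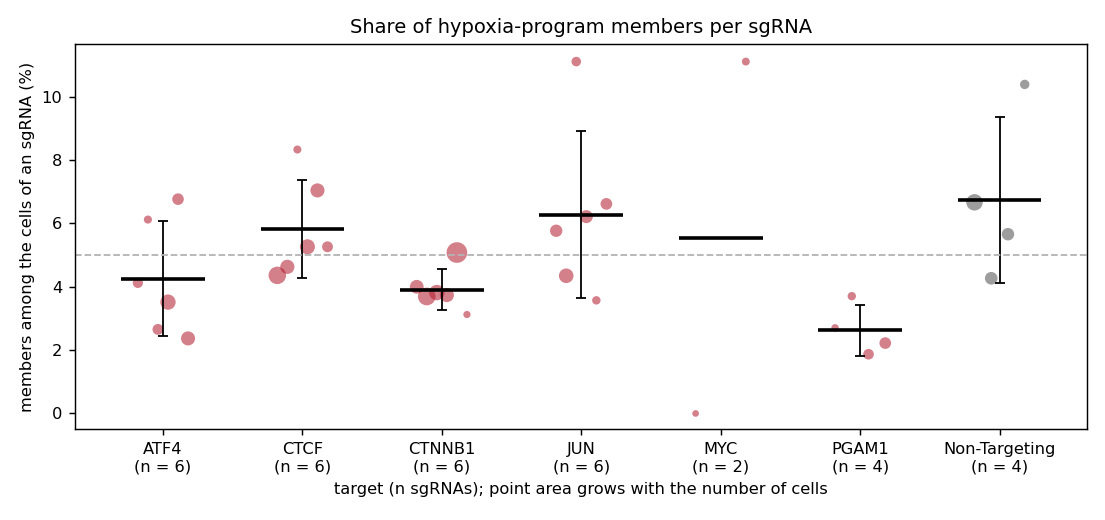
Share of hypoxia-program members among the cells of each sgRNA, in percent, for 6 targets and the non-targeting controls at the right, with point area growing with the number of cells, black bars for means and whiskers for SD where there are more than 2 sgRNAs. The dashed line marks 5%, the share over all kept cells, and the 4 PGAM1 points lie between 1.87 and 3.70%, below the 4 control points.

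Signs of double cells were read from the sgRNAs and the depth. A single sgRNA was assigned to 53.1% of members and 54.9% of remaining cells, and 7.50% of members (5.36 to 10.1%) and 10.2% of remaining cells (9.65 to 10.9%) held 5 or more sgRNA UMIs for each of 2 or more targets, non-targeting counted as one. More than 25000 gene UMIs were found in 0.394% of members and 3.22% of remaining cells. No sgRNA UMI was found in 14.4% of members (11.5 to 17.8%) and 10.9% of remaining cells (10.3 to 11.5%), beside the lower depth of members.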

How the data were processed

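The deposited matrix holds raw counts, whole-number UMI counts per gene or sgRNA and cell barcode, which the authors deposited after Cell Ranger (6.1.2, per the file headers); the build was hg38, per the submitters' processing notes. The sources used here do not give how reads were aligned, how strand was used or whether doublets had been removed before deposit. The members and gene lists were chosen with earlier results of these data known. Counts were summed over members and over remaining cells, divided by the total gene UMIs (5051993 in members, 128612457 in remaining cells) and given as CPM. Genes needed 20 CPM over all kept cells, and a ratio of 1.5 in either direction counted as higher or lower; no test was made. Named genes were the 5 score genes, the 15 largest and 15 smallest ratios with 1 direction in all 7 sgRNA groups, and, in each list, genes past the ratio of 1.5 and up to 4 with the largest absolute log2 ratio; further genes of the lists were named after their values were seen, and a few listed genes are not reported here. Cells took the identity of their leading sgRNA at 5 or more UMIs and at least 80% of its sgRNA UMIs, and sgRNAs needed 20 cells. Shares per sgRNA were compared by exact permutation tests, with a threshold of 0.05 on adjusted p. All sgRNAs came from 1 culture, so these p-values reflect differences among sgRNAs that may be technical. No doublet caller was applied. Phases were scored with scanpy 1.11.5, TMM factors came from edgeR 4.0.16 (R 4.3.3), and the rest used Python 3.11.15, numpy 2.4.6 and scipy 1.17.1. The ratio and permutation steps were tested on simulated data. Planned bands of score rank were replaced by bands of score UMIs, since 59.1% of kept cells tied at a score of 0. Promoters were matched by symbol, for 4409 of 5288 tested genes. Alternatives covered the member share, depth, cell filters, score genes, low-count filters, scaling and sgRNA rules.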

Additional observations from a re-analysis of the deposited data

Results flagged for a closer look

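Among the 705 barcodes that the cell filter removed, 43 (6.099%, exact binomial interval 4.45 to 8.13%) had a score at or above that of the lowest member. They are given because they carry a high score and lie outside every comparison above. Among kept cells the rule fixes this share at 5%, which lies inside that interval. Their median depth was 2441 gene UMIs, and that of all removed barcodes 2751. Over all removed barcodes the score genes summed to 66.9 CPM, against 71.8 CPM over all kept cells, and the tested HIF targets to 954 CPM, against 2687 CPM in members and 1109 CPM in remaining cells.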

How the results depend on the processing

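The count of genes at least 1.5-fold higher, 249, became 130 with the top 10% as members, 381 at no more than 10% mitochondrial UMIs, 584 with a filter of 5 CPM and 3458 with none. The count of lower genes, 655, became 223 with the top 10%, 1289 with a filter of 5 CPM and 2502 with none. A lower filter also raises the number of genes compared, which was 5288 at 20 CPM. Shares at the other settings are not given here, so these counts have no background. With no filter, genes with very few UMIs are counted too. The HIF target median, 1.12, became 1.31 with the top 2.5%, 0.79 with the top 10%, 1.03 after thinning, 1.37 at no more than 10% mitochondrial UMIs, 1.04 with a score without IGFBP3, 1.24 with a filter of 5 CPM and 1.27 with none. The glycolysis median, 0.55, became 0.74 with a filter of 5 CPM and 0.91 with none. TMM scaling moved log2 ratios by 0.0036. Restricting to cells with no GTSF1 UMI or with at least 5000 gene UMIs, both chosen after seeing the data, moved no count by over 1.5 times. Differences in member share (percentage points, target minus control) passed the adjusted threshold for ATF4 at no more than 10% mitochondrial UMIs (-5.11, exact permutation adjusted p = 0.0238). For CTNNB1 they passed after thinning (-3.51, exact permutation adjusted p = 0.0286) and with a score without TMEM45A (-3.03, adjusted p = 0.0286). They also passed without CTNNB1 sgRNA 5 (-3.07, exact permutation adjusted p = 0.0476). That sgRNA had the highest share of its target, so this last pass follows from which sgRNA was left out. The sign turned for JUN with score genes weighted equally (0.069), without control sgRNA 4 (0.74) and without JUN sgRNA 5 (0.066); for MYC with cells pooled (0.097), without control sgRNA 4 (0.024) and without MYC sgRNA 2 (4.36); and for CTCF without control sgRNA 4 (0.28). Leaving out 1 sgRNA at a time gave -3.31 to -1.27 for ATF4, -1.76 to 0.28 for CTCF, -3.66 to -1.62 for CTNNB1, -1.44 to 0.74 for JUN, -6.75 to 4.36 for MYC and -4.95 to -2.91 for PGAM1. The causes were not tested. No paired analysis was possible because sgRNA numbers of different targets name unrelated sgRNAs of 1 culture.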
